A study of Mus musculus with 6 samples.

Results

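Mesothelial cells form the thin sheet that covers the mesentery, the gut and the fat within the peritoneal cavity. They are an epithelium of mesodermal origin: the developmental transcription factor WT1 stays on in them, and they carry simple-epithelium keratins, uroplakins, mesothelin and the mucin MUC16 on a surface that lets organs glide. In injury they can lose this epithelial state and take on a mesenchymal one. The 10 genes described here mark that identity: Wt1, Bnc1, Upk1b, Upk3b, Msln, Lrrn4, Krt8, Krt18, Krt19 and Muc16. They were taken by name, and each was found on the array through the transcript accession of its probes. Of the 10, 9 had a probe, 1 each, and all 9 were among the 25777 genes and transcripts tested. Muc16 was not analysed here.

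The arrays measured RNA of the vascular stromal fraction of mesenteric fat, which is the cell pellet left after collagenase digestion of the tissue and lysis of red cells. There were 3 samples of propolis and 3 of vehicle. The propolis group was male ob/ob mice of strain C57BL/6JHamSlc-ob/ob, which received intraperitoneal injections of Brazilian propolis (resin gathered by bees) for 12 weeks, with 100 mg/kg per injection and 2 injections a week. The vehicle group was male ob/ob mice of the same strain that received a solution low in DMSO and ethanol over the same time. Mice of both groups lack working leptin and are obese, so the comparison holds no lean animal. Samples are labelled as biological replicates, with neither ages nor the number of mice behind a sample given. The digest includes any mesothelium on the surface of the fat. In such bulk RNA a change in the number of mesothelial cells and a change in RNA per cell cannot be told apart.

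Levels are given on a log2 scale on which 0 is the 75th percentile of the array, and every ± is an SD with n = 3. Propolis 1, propolis 2, vehicle 1 and vehicle 2 shared slide 1, and propolis 3 and vehicle 3 shared slide 2. All 9 genes stood well above background on all 6 arrays, and the lowest level at which any probe did so ran from -5.82 to -5.26 by array. Transcripts of neighbouring organs were high on 2 vehicle arrays. The summed level of 9 intestinal epithelial genes ran from 3.23 to 21.6 in propolis, in units of the array's 75th percentile of intensity, against 4.32, 5.28 and 603.8 in vehicle 1, vehicle 2 and vehicle 3. The summed level of 9 pancreatic acinar genes ran from 1.32 to 1.73 in propolis, against 1.31, 293.7 and 3.56 in vehicle 1, vehicle 2 and vehicle 3. Intestinal transcripts were thus highest on vehicle 3 and acinar transcripts on vehicle 2. Results of the 9 genes that rest on these arrays are given with and without them.

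Promoters of 6 of the 10 genes were found in a RefSeq table of build GRCm38.p6, each 250 bases before to 50 bases after an annotated transcript start. The 4 printed here, all 5′ to 3′ on the gene's own strand, are that of Bnc1, which rose after propolis, that of the surface gene Lrrn4, and those of the neighbouring keratin genes Krt8 and Krt18. Capitals mark matches, on either strand, to 4 motifs: the GC box GGGCGG, the TATA box TATAAA, the TEAD site GGAATG and the WT1/EGR-type site GCGNGGGNG. Capitals run together where matches overlap.
Bnc1 promoter, chr7:81992250-81992549, minus strand: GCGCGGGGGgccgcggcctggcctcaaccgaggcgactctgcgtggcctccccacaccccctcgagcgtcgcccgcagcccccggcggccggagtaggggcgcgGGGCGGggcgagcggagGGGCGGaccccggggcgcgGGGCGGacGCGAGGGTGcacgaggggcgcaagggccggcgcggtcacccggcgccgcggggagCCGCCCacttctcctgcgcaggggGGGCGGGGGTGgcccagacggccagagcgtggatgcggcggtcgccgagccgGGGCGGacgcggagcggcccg
Lrrn4 promoter, chr2:132880813-132881112, minus strand: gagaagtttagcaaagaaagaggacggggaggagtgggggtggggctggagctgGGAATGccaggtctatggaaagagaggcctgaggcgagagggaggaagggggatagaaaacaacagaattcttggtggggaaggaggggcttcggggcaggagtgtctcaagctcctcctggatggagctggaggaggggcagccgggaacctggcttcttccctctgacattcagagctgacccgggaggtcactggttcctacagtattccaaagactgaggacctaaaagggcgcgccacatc
Krt8 promoter, chr15:102004293-102004592, minus strand: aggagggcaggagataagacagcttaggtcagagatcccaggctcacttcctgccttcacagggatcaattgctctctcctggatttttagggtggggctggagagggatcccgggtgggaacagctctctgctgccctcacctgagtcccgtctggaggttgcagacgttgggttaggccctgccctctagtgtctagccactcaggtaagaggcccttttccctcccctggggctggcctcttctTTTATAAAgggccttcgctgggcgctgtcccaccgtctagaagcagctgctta
Krt18 promoter, chr15:102027966-102028265, plus strand: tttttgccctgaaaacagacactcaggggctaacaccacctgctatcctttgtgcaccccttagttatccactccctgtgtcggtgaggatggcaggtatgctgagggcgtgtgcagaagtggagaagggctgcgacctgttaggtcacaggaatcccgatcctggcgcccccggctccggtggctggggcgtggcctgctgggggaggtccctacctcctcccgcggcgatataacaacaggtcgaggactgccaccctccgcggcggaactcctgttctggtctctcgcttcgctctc

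The Bnc1 window was 83.3% G and C, at the 99.8th percentile of 32851 promoters in the table, whose median was 52.7%. It held 6 GC boxes and 3 WT1/EGR-type sites, 1 of which overlaps a GC box. Of all promoters in the table, 35.7% held a GC box and 12.3% a WT1/EGR-type site. The Lrrn4 and Upk3b windows held 1 TEAD site each, as did 14.7% of all promoters at least once, and the Krt8 window held TATA box letters on both strands, which overlap each other, as did 13.6% of all promoters on either strand. The Krt18 and Muc16 windows held none of the 4 motifs. A match in these letters is a description of the window and not of binding.

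The transcription factors of the group differed most clearly between the treatments. Wt1 encodes the zinc-finger factor that maintains mesothelium and other linings of the body cavity, and Bnc1 encodes basonuclin, a zinc-finger protein of squamous epithelia, germ cells and mesothelium. Of the 9 genes tested, these 2 rose after propolis at a limma p adjusted over all genes below 0.05, and 0 fell. Over all genes tested, 0.722% were called higher by the same rule and 0.834% in either direction. By unadjusted limma p, 5 of the 9 were under 0.05, all higher, against 7.24% of all genes tested.

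Wt1 was at 4.97, 5.09 and 5.29 in propolis, against 3.51, 3.21 and 2.69 in vehicle. The groups did not overlap, and the lowest propolis array stood 1.46 above the highest vehicle array. The propolis arrays lay within 0.32 of each other and the vehicle arrays within 0.82. The fitted rise was 1.98 with an SE of 0.25, or 3.94-fold (limma adjusted p = 0.0320). The difference was 1.67 within slide 1 and 2.60 within slide 2, and with slide as a block the adjusted p was 0.0438. Wt1 passed in 0 of the 6 fits that left out 1 array, where the difference ran from 1.76 to 2.16 and the adjusted p from 0.0575 to 0.144, with all 6 unadjusted p-values at or below 0.00103.

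Wt1os is a long noncoding RNA gene beside Wt1 on chromosome 2, and it was looked up after the values of Wt1 were known. It stood at -2.37, -1.78 and -1.64 in propolis, against -4.65, -6.19 and -4.84 in vehicle, and it was well above background on 3 propolis and 2 vehicle arrays. The fitted difference was 3.30 (limma adjusted p = 0.0387), of uncertain size because vehicle 2 lay below background.

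Bnc1 was at 1.14, 0.30 and 0.62 in propolis, against -1.54, -2.54 and -2.46 in vehicle. No vehicle array came near a propolis array, with a gap of 1.84 between the groups, and vehicle 1 was the highest of its group. The fitted rise was 2.87 with an SE of 0.35, or 7.29-fold (limma adjusted p = 0.0299). It was 2.76 within slide 1 and 3.08 within slide 2, with an adjusted p of 0.0443 with slide as a block. With 1 array left out the difference ran from 2.64 to 3.18, and it passed without vehicle 1 (adjusted p = 0.0448) but not without any of the other arrays (highest adjusted p = 0.126, without vehicle 2). Without vehicle 2 and vehicle 3 together, which leaves vehicle 1 as the only control and takes the spread from the propolis arrays alone, limma called 0 of all genes tested, and the difference was 2.23 for Bnc1 (adjusted p = 0.477) and 1.61 for Wt1 (adjusted p = 0.493).

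**Figure D1:**
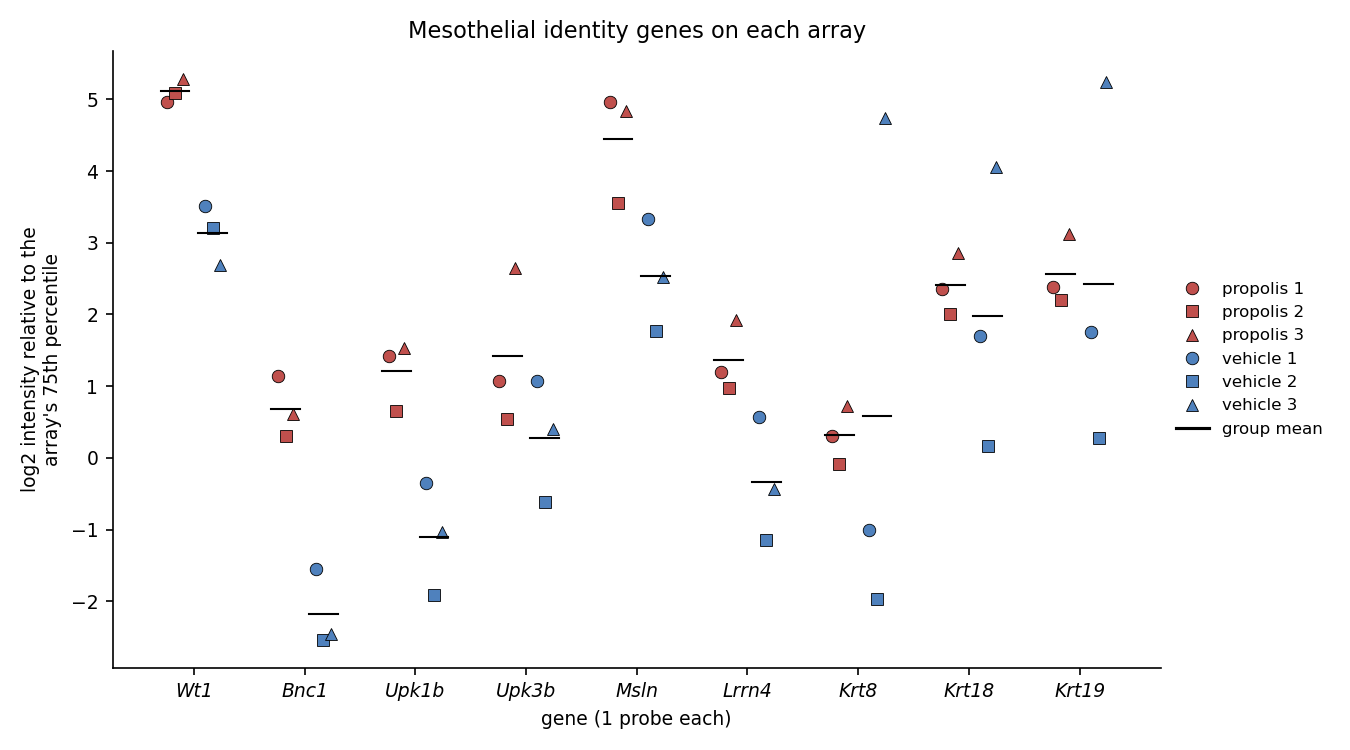
Levels of the 9 measured mesothelial identity genes on each array, as log2 intensity relative to the array's 75th percentile on the y axis and gene on the x axis, with propolis in red to the left of vehicle in blue, marker shape for the replicate and a bar for each group mean. Wt1, Bnc1, Upk1b, Msln and Lrrn4 show groups that do not overlap, and vehicle 3 is the highest array for Krt8, Krt18 and Krt19.

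The surface and membrane genes stood higher after propolis on average but none passed the adjusted threshold. Groups did not overlap, with propolis higher, for 3 of these 4, and for 5 of all 9 genes. Over all genes tested 10.8% did so, and 17.4% had groups apart in either direction. Vehicle 2, the array high in acinar transcripts, was the lowest vehicle array for all 4 surface genes. Without it the differences were 1.90 for Upk1b, 1.52 for Msln, 1.30 for Lrrn4 and 0.69 for Upk3b (limma adjusted p from 0.216 to 0.913).

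Upk1b encodes uroplakin 1B, a tetraspanin known from the bladder surface that mesothelium also makes. It was at 1.43, 0.66 and 1.54 in propolis, against -0.35, -1.92 and -1.04 in vehicle, so every propolis array exceeded every vehicle array. The difference was 2.31 with an SE of 0.45, or 4.96-fold (limma adjusted p = 0.0932). Its probe was spotted 10 times on each array. The SD between those spots was 0.036 to 0.052 in propolis and 0.058 to 0.102 in vehicle, against an SD between arrays of 0.48 in propolis and 0.78 in vehicle.

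Msln encodes mesothelin, a surface glycoprotein that binds MUC16. It was at 4.96, 3.56 and 4.83 in propolis, against 3.34, 1.76 and 2.53 in vehicle. The groups were apart by 0.22 only, between propolis 2 and vehicle 1. The difference was 1.91, with a 95% interval from 0.64 to 3.18 (limma adjusted p = 0.218). Lrrn4 encodes a neuronal leucine-rich repeat membrane protein that is also a mesothelial marker. It was at 1.20, 0.97 and 1.93 in propolis, against 0.56, -1.14 and -0.44 in vehicle, again with vehicle 1 nearest to propolis. The difference was 1.71, with a 95% interval from 0.55 to 2.86 (limma adjusted p = 0.224).

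Upk3b encodes uroplakin 3B, a partner of uroplakin 1B in the membrane. It was at 1.07, 0.54 and 2.65 in propolis, against 1.07, -0.62 and 0.40 in vehicle. The groups overlapped, since vehicle 1 exceeded propolis 2, and propolis 3 stood apart at the top. The difference was 1.14, with a 95% interval from -0.43 to 2.71 (limma adjusted p = 0.594), and it fell to 0.52 without propolis 3. Its neighbour Upk3bl, a similar gene looked up after these values were known, was well above background on 1 propolis and 3 vehicle arrays and was at -5.13, -5.49 and -5.25 in propolis, against -4.59, -4.72 and -4.95 in vehicle, so that most of its propolis levels are not above background.

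The 4 surface genes and Bnc1 shared features of the order of arrays. In Upk1b, Upk3b, Msln, Lrrn4 and Bnc1 alike, propolis 2 was the lowest propolis array, vehicle 1 the highest vehicle array and vehicle 2 the lowest. In Wt1 the lowest vehicle array was vehicle 3 instead, and propolis 1 was the lowest propolis array. Propolis 2 and vehicle 2 were the lowest of their groups in the 3 keratins as well.

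The keratins went another way. Krt8 encodes the type II keratin, and Krt18 and Krt19 encode type I keratins that pair with it in the filaments of simple epithelia, among them mesothelium, gut lining and pancreatic ducts. Krt8 and Krt18 are next to each other on chromosome 15. None of the 3 passed with all arrays (limma adjusted p from 0.902 to 0.976), and their groups overlapped in each case.

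Krt8 was at 0.30, -0.09 and 0.73 in propolis, against -1.01, -1.96 and 4.74 in vehicle. Krt18 was at 2.36, 2.00 and 2.86 in propolis, against 1.70, 0.16 and 4.06 in vehicle. Krt19 was at 2.38, 2.20 and 3.13 in propolis, against 1.76, 0.28 and 5.24 in vehicle. In all 3 keratins vehicle 3 was the highest of the 6 arrays and vehicle 1 and vehicle 2 were the lowest. Vehicle 3 stood 74.7-fold above the mean of vehicle 1 and vehicle 2 in Krt8, 18.7-fold in Krt19 and 8.74-fold in Krt18. In the other 6 genes the same ratio was between 0.63 and 1.13.

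Vehicle 3 was also the array highest in intestinal transcripts, of which 6 to 9 of 9 genes were above background on the other arrays, with all 9 on propolis 1. Fabp2, the intestinal fatty acid binding protein gene, was at 3.21, 1.51 and -1.93 in propolis, against -0.53, 1.03 and 8.33 in vehicle. Epcam, an adhesion gene of gut and other epithelia that mesothelium makes little of, was at -1.48, -3.31 and -5.89 in propolis, against -3.94, -4.00 and 2.75 in vehicle. Vehicle 3 was again the highest array for both. Of 10 epithelial genes that are low in mesothelium, between 6 and 8 were above background in propolis, against 6, 8 and 10 in vehicle 1, vehicle 2 and vehicle 3. Their summed level was 1.52 to 3.13 in propolis, against 1.37, 1.23 and 58.6 in vehicle 1, vehicle 2 and vehicle 3. The part of these intestinal and epithelial transcripts in the keratin levels was not tested. The direction of these marker lists turned with that array: the median difference of the 8 intestinal genes tested was -1.71 with all arrays and 0.70 without vehicle 3, and that of the 8 epithelial genes tested was -1.26 and 0.41.

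Without vehicle 3, the keratins stood higher in propolis, by 1.80 for Krt8 (95% interval 0.84 to 2.76), 1.55 for Krt19 (0.26 to 2.84) and 1.47 for Krt18 (0.19 to 2.76). The groups then did not overlap for 8 of the 9 genes, all but Upk3b, and for 17.2% of all genes in the same 3 against 2 arrays. These differences did not pass (limma adjusted p = 0.153, 0.297 and 0.314), and in that fit limma called 0 of the 9 genes, with 8 at an unadjusted p under 0.05, all higher, against 7.1% of all genes. In each keratin vehicle 3 was the highest array and vehicle 1 and vehicle 2 were the lowest. The rise and the lack of overlap of the keratins without vehicle 3 therefore follow from the array left out. Both counts of 8 genes above include the keratins. The difference of Krt8 over all arrays was -0.27, so its direction turned. Slide 1 alone, which does not hold vehicle 3, gave 1.59 for Krt8, 1.25 for Krt18 and 1.27 for Krt19. On slide 2, with 1 array of each group and no test, the differences were -4.01, -1.20 and -2.11.

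**Figure D2:**
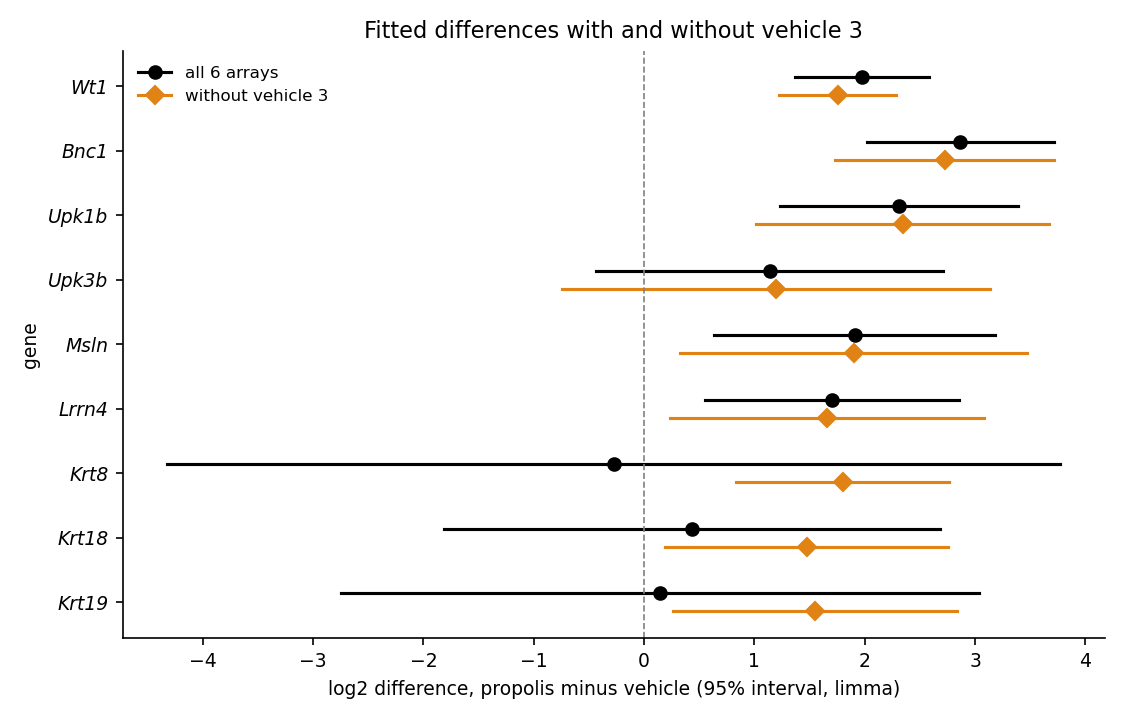
Fitted log2 difference, propolis minus vehicle, on the x axis for each of the 9 genes down the y axis, with 95% limma intervals, from all 6 arrays in black and without vehicle 3 in orange. The intervals of Krt8, Krt18 and Krt19 span 0 with all arrays and lie above 0 without vehicle 3, the highest array for each. The differences of the other 6 genes are above 0 in both fits. The interval of Upk3b spans 0 in both, from -0.43 to 2.71 with all arrays and from -0.74 to 3.14 without vehicle 3.

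Over the 9 genes, 8 had a higher mean in propolis, against 49.6% of all genes tested, and the median difference was 1.71, beside -0.00408 over all genes. It was 1.94 for the 6 genes other than keratins, 0.14 for the 3 keratins, and 1.76 for all 9 without vehicle 3. Without vehicle 2, the array high in acinar transcripts, it was 1.30, and with vehicle 1 as the only control it was 1.11. Marker lists of other cells of the fraction held 0 called genes. Macrophage genes had a median difference of -0.27 and adipose stromal progenitor genes of -0.11, and limma called 0 in each list, with 0 of 5 and 1 of 7 at an unadjusted p under 0.05. The progenitor marker genes were all well above background on all arrays. B cell genes had a median of -2.30, and their summed level was 2.37 to 3.89 in propolis, against 12.7, 48.6 and 3.17 in vehicle 1, vehicle 2 and vehicle 3. T cell, blood endothelial and adipocyte genes, 5 each, all had lower means in propolis, with medians of -0.57, -0.80 and -0.72. Limma called 0 of each list, with 0, 1 and 3 at an unadjusted p under 0.05. The share of all genes tested at that unadjusted threshold was 11.7%, in either direction. The part of these cell types in the levels of the mesothelial genes, as relative values, was not tested.

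**Figure D3:**
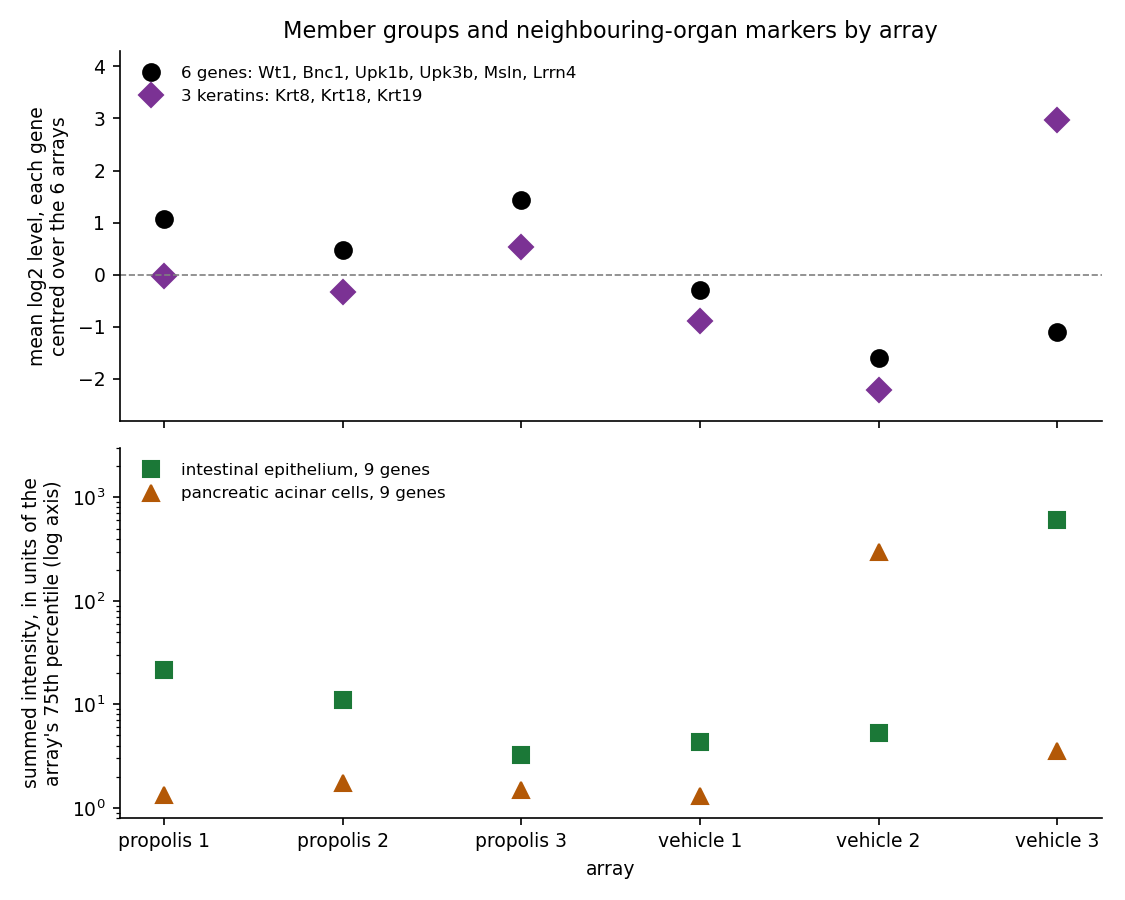
Upper panel, mean level of the 6 genes other than keratins (black circles) and of the 3 keratins (purple diamonds) on each array, each gene first centred on its mean over the 6 arrays (log2 units). Lower panel, summed intensity of 9 intestinal and 9 pancreatic acinar marker genes in units of the array's 75th percentile, on a log axis. Keratins are at 2.97 in vehicle 3, where the other 6 genes are at -1.10 and the intestinal sum is 603.8.

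The genes also differed in how alike their patterns over the 6 arrays were. Likeness was the root mean square difference between levels centred on each gene's own mean, in log2 units, so smaller is more alike. Among all 36 pairs the closest were Upk1b with Msln at 0.28, followed by Msln with Lrrn4 and Upk1b with Lrrn4, each at 0.37. Krt18 with Krt19 was at 0.40, the closest keratin pair. Krt8 with Bnc1, at 2.73, was the least alike.

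Outside the 10 genes, 14688 genes with a symbol were above background on all arrays. The closest of these to the mean pattern of the 9 genes were Trpm6 at 0.23, Mpzl2 at 0.25, Krt7 and Apol9b at 0.26, Apol9a at 0.30, Clca3a2 at 0.31, Tmem98 at 0.32 and Gsta4 at 0.33. Apol9a and Apol9b are near-identical copies whose probes may share signal. Krt7, another keratin of mesothelium and ducts, was at -0.71, -0.59 and -0.07 in propolis, against -1.65, -2.97 and -0.40 in vehicle. Vehicle 3 was its highest vehicle array but lay below propolis 3, unlike in Krt8, Krt18 and Krt19.

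Closest to Wt1 alone were Col4a5, a basement membrane collagen gene, at 0.22, the thrombin receptor gene F2r at 0.23, and Csrp2 and Srrm4 at 0.25 each. F2r was at 4.88, 4.88 and 4.74 in propolis, against 3.06, 3.01 and 2.86 in vehicle. Since these genes were chosen for having the pattern of Wt1 on the same arrays, their group differences follow from the choice and were given no test. The differences were 2.04 for Col4a5, 1.86 for F2r, 1.69 for Srrm4 and 1.67 for Csrp2, which encodes a LIM-domain protein.

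After these values were seen, the same measure was taken against the 6 genes other than keratins and against the keratins apart. The 8 closest to the mean of the 6 genes were the tight junction gene Cldn10 at 0.16, the water channel gene Aqp5 at 0.20, Wdr92 at 0.22, Cxadr at 0.23, the complement gene C6 at 0.29, Kcnab1 at 0.30, Pcdhb9 at 0.32 and Chil1 at 0.33. Cldn10 was at 0.63, 0.23 and 1.38 in propolis, against -0.49, -1.67 and -1.57 in vehicle. Closest to the keratins were Myo5b, a motor protein gene of epithelial transport, at 0.24, Mapk13 at 0.36, Krt42 at 0.41 and Igsf5 at 0.43. Myo5b was at 0.64, 0.41 and 1.19 in propolis, against 0.12, -1.73 and 3.21 in vehicle, with its highest level on vehicle 3.

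Other genes known from mesothelium gave a mixed picture. Of 14 further mesothelial genes, 13 were tested, 8 with higher and 5 with lower means in propolis, 1 was called higher and 0 lower, and the median difference was 0.93. By unadjusted limma p, 5 of the 13 were under 0.05, against 11.7% of all genes tested in either direction. The share of all genes called higher was 0.722%. Anxa8, an annexin gene, was the gene called. It was at 4.71, 4.17 and 4.26 in propolis, against 2.03, 1.17 and 1.14 in vehicle, a rise of 7.64-fold (limma adjusted p = 0.0173). It passed in 1 of the 6 fits with 1 array left out (adjusted p from 0.0303 to 0.0968).

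Rspo1, which encodes a secreted enhancer of WNT signalling, averaged 4.92 ± 0.29 in propolis and 3.72 ± 0.28 in vehicle (limma adjusted p = 0.0983). Nkain4 averaged 2.98 ± 0.60 in propolis and 1.40 ± 0.46 in vehicle (adjusted p = 0.153). Pdpn, encoding podoplanin of mesothelium and lymphatic vessels, averaged 5.51 ± 0.47 in propolis and 4.56 ± 0.32 in vehicle (adjusted p = 0.284). For Rspo1, Nkain4 and Pdpn the groups did not overlap. Calb2, encoding calretinin, was not well above background on any array. Itln1, which encodes intelectin 1 of gut and mesothelium, was at -0.18, -5.08 and -6.43 in propolis, against -1.54, -5.50 and 5.77 in vehicle, with its top value on vehicle 3.

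Transcription factors of the coelomic lining and of tissues derived from it stood mostly higher. Of 12 tested, 9 had higher means in propolis, and limma called 2 higher and 0 lower. Groups did not overlap for 7 of them, all higher. The shares over all genes tested were 0.722% called higher and 10.8% apart with propolis higher. Like the mesothelial identity genes and the other lists, this list was chosen with earlier results of these data known. Its counts beside these shares are a description and not a test. The median difference of the 12 genes was 0.99. Meis1, a homeobox gene, was at 3.98, 3.74 and 3.95 in propolis, against 2.63, 2.77 and 2.82 in vehicle, a rise of 2.22-fold (limma adjusted p = 0.0457). It passed in 0 of 6 fits with 1 array left out (highest adjusted p = 0.219). Gata6, which encodes a zinc-finger factor of mesothelium, peritoneal macrophages and other cells, was the other gene called. It was at 4.07, 3.54 and 3.37 in propolis, against 1.33, 1.34 and 1.89 in vehicle, and it too passed in 0 of those 6 fits. Hand2 differed by 2.15 (limma adjusted p = 0.0730) and Zfpm2, a GATA cofactor gene, by 1.04 (adjusted p = 0.0865). The summed level of the 12 genes was 48.9 to 59.9 in propolis, against 23.6 to 27.2 in vehicle.

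Genes known as WT1 targets in kidney, gonad or epicardium differed in both directions. Of 10 tested, 4 had higher and 6 had lower means in propolis, 1 was called higher and 0 lower, and the median difference was -0.23 over all arrays and 0.19 without vehicle 3. By unadjusted limma p, 3 of the 10 were under 0.05, of which Spry1 was lower, against 11.7% of all genes tested in either direction. The share of all genes called higher was 0.722%. The summed level of the 10 genes was 82.1, 67.3 and 81.3 in propolis, against 38.0, 34.2 and 46.1 in vehicle, without overlap. That sum is set by the brightest genes. The gene called was Wnt4, a secreted WNT ligand gene of kidney and gonad development. It was at 4.60, 4.47 and 4.40 in propolis, against 0.99, 0.31 and 0.67 in vehicle. The groups did not overlap, and the fitted rise was 14.2-fold (limma adjusted p = 0.00652). Wnt4 passed in all 6 fits with 1 array left out (highest adjusted p = 0.0489). Snai1 differed by 0.95 (adjusted p = 0.205), Spry1 by -0.68 (adjusted p = 0.293) and Aldh1a2, a retinoic acid synthesis gene, by 0.93 (adjusted p = 0.439). The glomerular gene Podxl differed by -0.93 (adjusted p = 0.606) with overlapping groups. Podxl and Aldh1a2 are also counted among the further mesothelial genes above, and Snai1 among the transition genes below.

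Genes linked to the mesothelial-to-mesenchymal transition were led by Cdh2. Of 15 tested, 9 had higher and 6 had lower means in propolis, 1 was called higher and 0 lower, 6 had an unadjusted limma p under 0.05 (5 higher, and Snai2 lower), against 11.7% of all genes tested in either direction, and the median difference was 0.51. Cdh2 encodes N-cadherin, the main cadherin of mesothelium as well as of mesenchymal cells. It was at 3.32, 3.08 and 2.54 in propolis, against -0.18, -0.14 and -0.21 in vehicle. The vehicle arrays lay within a narrow range, and the rise was 8.91-fold (limma adjusted p = 0.00975), passing in 4 of 6 fits with 1 array left out. Twist1 differed by 1.27 (adjusted p = 0.0777) and the TGF-beta receptor gene Tgfbr2 by 0.51 (adjusted p = 0.262). Cdh1, encoding the E-cadherin of gut and other epithelia, is counted with the WT1 targets and the epithelial genes and not among these 15. It was at -2.31, -3.21 and -4.71 in propolis, against -4.37, -3.88 and 1.62 in vehicle, with vehicle 3 on top.

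Among 10 other keratin genes, 8 were tested. By unadjusted limma p, 2 of these 8 were under 0.05, against 11.7% of all genes tested in either direction. At the adjusted threshold 0.722% of all genes were called higher, and of these 8 genes 1 was, Krt14, a keratin of stratified epithelia. It was at -0.52, -1.05 and -1.07 in propolis, against -2.36, -2.92 and -2.99 in vehicle, with no overlap, a rise of 3.67-fold (limma adjusted p = 0.0396, and 0.0718 to 0.177 with 1 array left out). Unlike the simple keratins above, it was lowest on vehicle 3. The gut keratin gene Krt20 was at 1.06, 0.43 and -2.48 in propolis, against -1.70, -1.33 and 6.22 in vehicle, with its highest level on vehicle 3. Krt80 differed by 0.77 (adjusted p = 0.253). Of 5 other uroplakin and membrane mucin genes, Upk1a alone was tested, and it differed by 0.50 (adjusted p = 0.503). Upk2 was not well above background on any array, Upk3a was on 1 array, and Muc1 and Muc4 were on 2 arrays each.

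**Figure D4:**
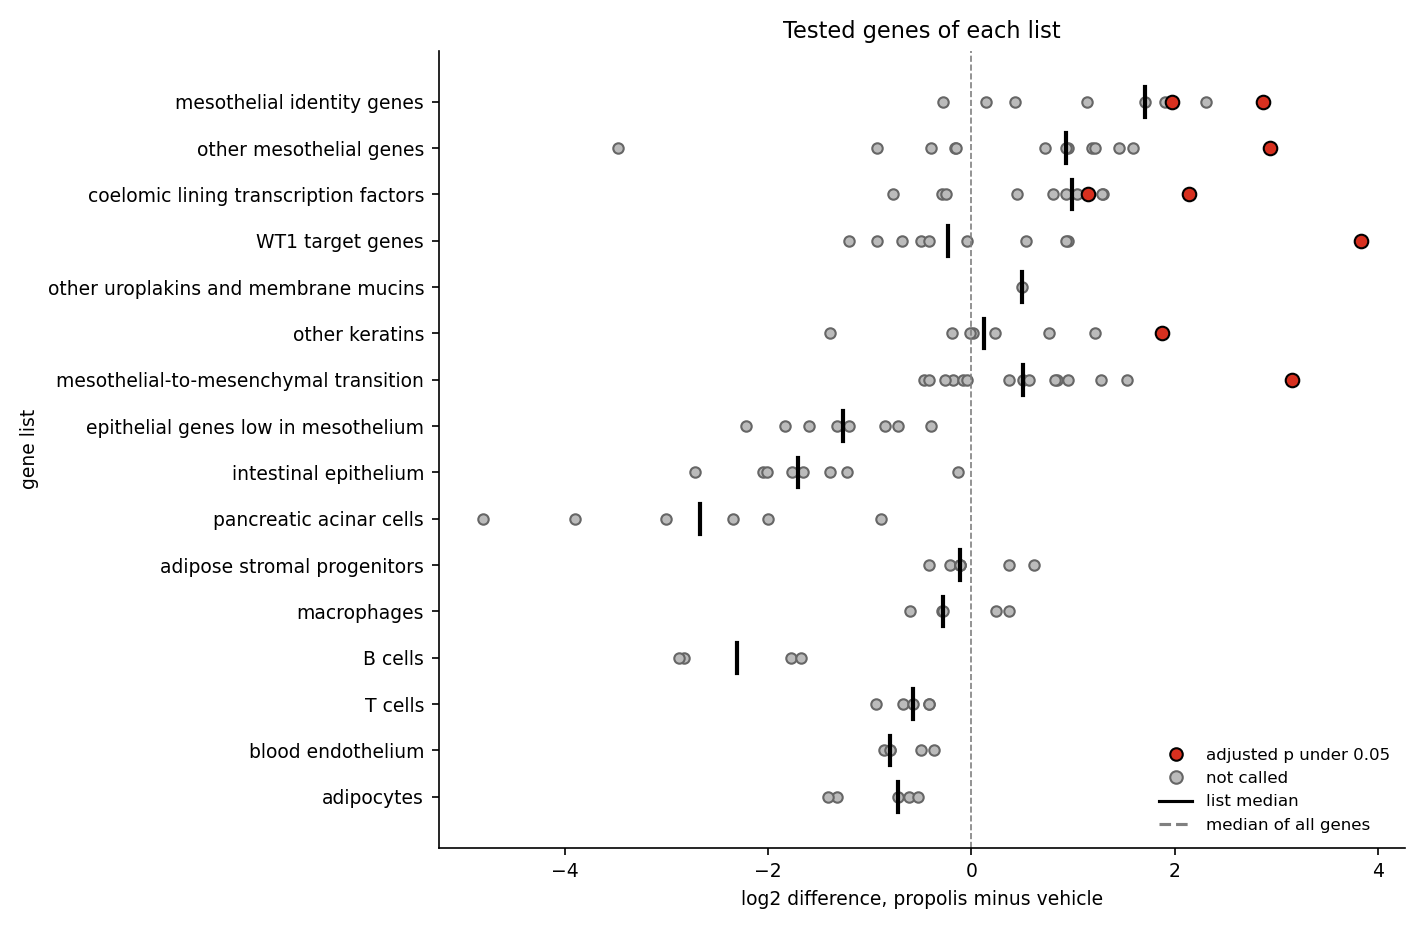
Fitted log2 difference, propolis minus vehicle, on the x axis for every tested gene of each list down the y axis, in red where the limma adjusted p is under 0.05, with a black bar at the list's median and a dashed line at the median of all genes tested. The mesothelial identity genes have a median of 1.71, while the intestinal and acinar lists lie below 0 with medians of -1.71 and -2.67 and no gene called. Without vehicle 3 the intestinal median is 0.70 and the acinar median -3.35. Acinar transcripts are highest on vehicle 2, with a summed level of 293.7, and both acinar medians include that array. The acinar median without vehicle 2 is not given.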

How the data were processed

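Expression was measured on 6 one-colour Agilent arrays. Per the file headers and the submitters' processing notes, they were read with Agilent Feature Extraction 10.7.3.1. In the files as deposited, each spot has a background-corrected intensity on a linear scale, and the authors' deposited series table holds log2 values whose 75th percentile per array lies near 0. The series table's array medians ran from -3.97 to -3.62, and its scale was found by setting it against the log2 scanner signal, from which the 9 probes differed by at most 0.0062. It was used as an alternative only. Array design and build (mm9) are per the file headers. The deposited flags, scored 0 or 1 per spot (other columns), mark spots above background, non-uniform, outlying or saturated, and no spot was saturated.

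Here log2 signals were averaged over a probe's spots, leaving out non-uniform ones, and set relative to the 75th percentile of all probes of the array, which ran from 459.4 to 729.0 in intensity units. A probe entered if well above background on at least 3 of 6 arrays (34786 of 55681 probes), and the brightest stood for its gene. A GRCm38.p6 table of RefSeq accessions gave symbols to 27235 probes. One fit with limma 3.58.1 in R 4.3.3 covered all 25777 genes, with Benjamini-Hochberg adjustment and a threshold of 0.05. It called 215 genes, 186 of them higher. An exact permutation test of 3 against 3 arrays cannot give a p below 0.1. The number of arrays limits the precision.

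The genes and all lists were chosen with earlier results of these data known. Some genes stand in several lists, so the counts of those lists are not separate. Named are the 10 genes, the called genes and up to 4 of lowest p in each list, and the genes nearest by likeness. Others, such as Wt1os, Upk3bl and genes high on vehicle 3, were chosen after their values were seen. Replicate numbers were not used to pair the samples in the main fit. Alternatives covered background correction, scaling, filter, flags, probe rule, variance model, array weights, slide or replicate number as a block, the arrays of slide 1 only, arrays left out and the threshold.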

Additional observations from a re-analysis of the deposited data

How the results depend on the processing

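Over 22 alternatives, the differences of Wt1, Bnc1, Upk1b, Upk3b, Msln and Lrrn4 stayed above 0, from 1.61 to 2.16 for Wt1 and from 2.16 to 3.18 for Bnc1. Array weights took Upk3b to 0.0028, Msln and Lrrn4 to 0.79 each and Upk1b to 1.44, the lowest value of each over the 22. Wt1 passed in 12 of the 22 and Bnc1 in 14. Without a filter on dim probes 106 genes and 0 of the 9 passed (limma, 5 of the 9 at an unadjusted p under 0.05). On slide 1 alone 0 genes and 0 of the 9 passed, with 5856 and 4 at an unadjusted p under 0.05. Without vehicle 2 and vehicle 3 together 0 and 0 passed, with 1362 and 4 at an unadjusted p under 0.05. Array weights called 3231 genes and took the median difference of the 9 genes to 0.79, and an adjusted p under 0.10 called 526 genes. With 1 array left out, 11 to 94 genes and 0 to 1 of the 9 passed, and the median ran from 1.30 to 2.16. Median scaling shifted the median of all genes to 0.15 and that of the 9 genes to 1.86. The cause of these changes was not tested, beyond fewer arrays where arrays were left out.

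Same-numbered arrays of the groups had deviations correlating at 0.036, 0.291 and 0.135, and arrays of different numbers at -0.310 to 0.206. These few values do not settle whether the numbers pair the samples, and the main fit did not pair them. With the replicate block 73 genes passed and 1 of the 9, Bnc1 (adjusted p = 0.0429), with Wt1 at 0.0926. With 1 array left out, the difference of Krt8 ran from -1.55 to 1.80, that of Krt18 from -0.47 to 1.47 and that of Krt19 from -0.93 to 1.55, each highest without vehicle 3. The difference of Krt8 turned to 0.99 with array weights, 1.59 on slide 1 alone, 1.80 without vehicle 3 and 1.32 without vehicle 2 and vehicle 3. Krt19 turned to between -0.93 and -0.13 without vehicle 2, vehicle 1 or propolis 3, at -0.19 without vehicle 1, and Krt18 to -0.47 without vehicle 2.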
